A study of Caenorhabditis elegans with 16 samples.

Results

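The dosage compensation complex of Caenorhabditis elegans is encoded by the 10 genes described here, sdc-1, sdc-2, sdc-3, mix-1, dpy-27, dpy-26, dpy-28, capg-1, dpy-30 and dpy-21. They were chosen by name as the known subunits and are 10 of the 19974 genes named in the tables. No measured value entered the rule of choice, although earlier results of these data were known. RAPID, a tissue-specific DamID of RNA polymerase, was used to measure polymerase occupancy over them in 2 tissues, hypodermis and intestine, and in 2 genotypes, wild type and the mutant baf-1(G12T). The mutant carries a threonine in place of a glycine at the endogenous locus of BAF-1, a small chromatin protein of the nuclear envelope, to mimic a human progeria mutation. In RAPID the fusion Dam::RPB-6 joins a polymerase subunit to the bacterial methyltransferase Dam, which methylates GATC sites where the polymerase passes, and free GFP::Dam reports how accessible the sites are. The series has 16 libraries, with 2 replicates for either fusion in each of the 2 genotypes in each of the 2 tissues.

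All strains carried a Dam construct behind a heat shock promoter that gave trace expression once the recombinase FLP had excised a blocking cassette. FLP was driven by the dpy-7 promoter for hypodermis and by the nhx-2 promoter for intestine, so a score describes the cells in which that promoter had been active. Each combination of tissue, genotype and fusion was its own strain, and a difference between tissues or genotypes cannot be told apart from a difference between strains. From each strain 4000 fourth-stage (L4) larvae were collected after 48 h at 20 °C on bacteria that lack Dam. The score of a gene is log2(Dam::RPB-6/GFP::Dam), so that 0 stands for equal signal of the 2 fusions. The deposited tables give 1 score and 1 false discovery rate (FDR) per gene for each tissue and genotype, with both replicates already combined. There is therefore no replicate spread, no difference below was tested, and the differences are those between single combined values. The score is an average over the cells of a tissue, in which more cells that transcribe a gene and more polymerase per cell cannot be told apart.

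Hermaphrodites have a pair of X chromosomes and males a single one, and the complex lowers transcription from both hermaphrodite X chromosomes to balance the sexes. SDC-2 is made in hermaphrodite embryos, binds the X together with SDC-3 and brings the other subunits to it. MIX-1, DPY-27, DPY-26, DPY-28 and CAPG-1 form a condensin, a ring-shaped machine that extrudes chromatin loops. DPY-30 also belongs to COMPASS, which methylates histone H3 at lysine 4, and DPY-21 is a histone demethylase that turns dimethylated lysine 20 of histone H4 into the monomethylated form enriched on the compensated X. Compensation is kept up in somatic tissues through larval life.

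RAPID reads a gene through its GATC sites, and the members differ widely in these. The number of GATC fragments per gene ran from 3 in dpy-30 to 49 in sdc-3, and in each member it was the number of sites found in the WBcel235 sequence of the gene plus 1. The stretches of coding sequence shown here, with each GATC site in capitals, contrast the 2 isolated sites that are all that dpy-30 has with the densest windows of 90 coding bases in the members with the highest scores or the most sites. They lie at chrV:12191538-12191570 and chrV:12191847-12191936 for dpy-30 (plus strand), chrX:11528752-11528841 for sdc-2 (plus strand), chrII:10825415-10825504 for mix-1 (plus strand), chrV:15043094-15043183 for sdc-3 (minus strand) and chrV:17943570-17943659 for dpy-21 (minus strand).
dpy-30, first site: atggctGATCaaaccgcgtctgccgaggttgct
dpy-30, second site: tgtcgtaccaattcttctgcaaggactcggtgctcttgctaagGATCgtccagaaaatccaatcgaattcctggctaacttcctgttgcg
sdc-2: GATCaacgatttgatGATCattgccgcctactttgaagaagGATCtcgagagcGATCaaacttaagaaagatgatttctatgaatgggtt
mix-1: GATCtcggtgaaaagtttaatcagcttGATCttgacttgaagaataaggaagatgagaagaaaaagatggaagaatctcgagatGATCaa
sdc-3: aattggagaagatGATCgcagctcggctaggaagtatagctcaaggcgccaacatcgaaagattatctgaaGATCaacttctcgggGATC
dpy-21: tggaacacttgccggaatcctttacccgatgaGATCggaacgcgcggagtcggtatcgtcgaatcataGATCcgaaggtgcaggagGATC

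The first line of dpy-30 opens at its start codon, and its second site lies 346 bases further on, in the next coding exon. The window of sdc-2 holds 4 sites, and those of mix-1, sdc-3 and dpy-21 hold 3 each. Per kb of gene, site density ran from 2.15 in mix-1 to 5.3 in sdc-3, and dpy-30 was near the lower end at 2.31. The median fragment was 110 bases long in sdc-3 and 476 in dpy-30. Where the sites fall also differed. In sdc-2, 37 of 38 sites were in coding exons and 1 in an intron, whereas mix-1, the longest member, had 13 of 37 sites in coding exons and 22 in introns.

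**Figure D1:**
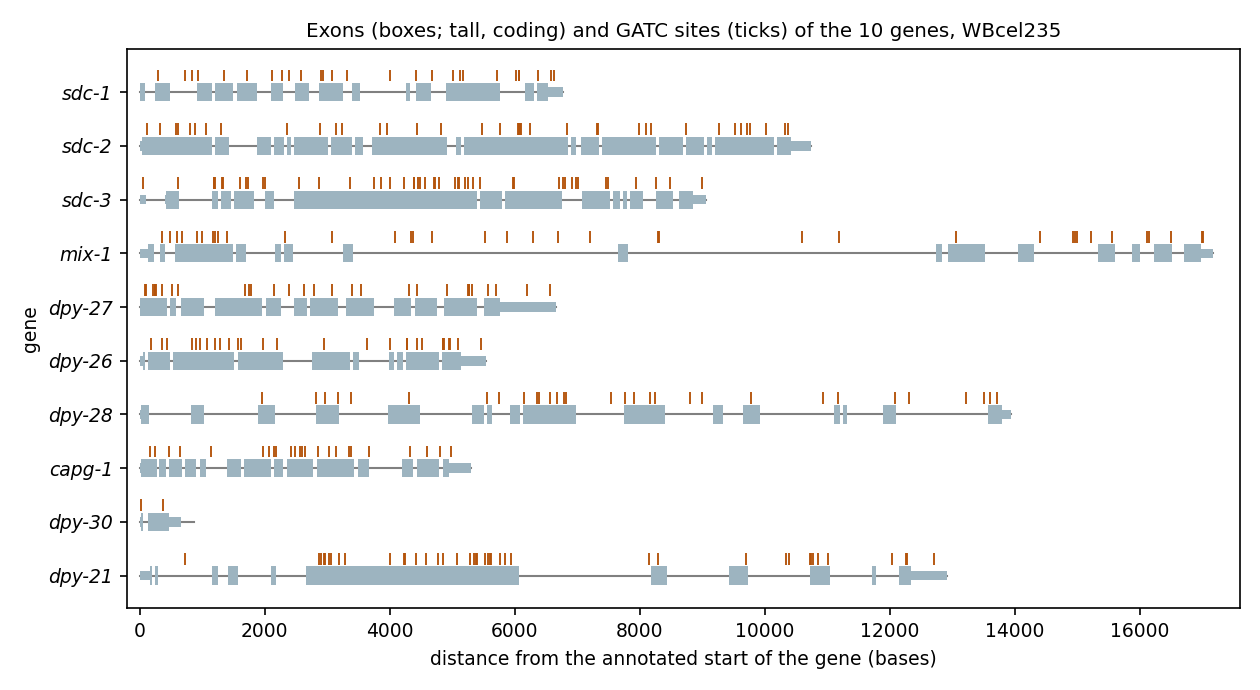
Each row draws 1 gene to scale from its annotated start (horizontal axis, bases), with coding exons as tall boxes, other exonic sequence as low boxes, introns as lines and GATC sites as ticks. dpy-30 has 2 sites, while the other members have 24 to 48.

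Between 1 and 3 of the 10 genes were called expressed in each table, and between 1 and 6 had a score above 0. The share of all named genes with a score above 0 ran from 17.6% in wild-type intestine to 40.4% in mutant hypodermis. By the rule of the study, a gene is called expressed at an FDR under 0.05. In wild-type hypodermis 2 of 10 members were called, dpy-21 and mix-1, where 9.81% of all named genes were called. In mutant hypodermis 2 of 10 were called, sdc-2 and dpy-21, against 7.53% of all genes. Intestine of wild type had mix-1 alone, 1 of 10 against 7.94%, and in mutant intestine the called members were mix-1, dpy-21 and dpy-30, 3 of 10 against 10.5%. No member was called in all 4 tables, mix-1 and dpy-21 were each called in 3, and sdc-1, sdc-3, dpy-26, dpy-27, dpy-28 and capg-1 were called in none. To be called in no table was the usual state of a gene. Of genes with a known position, 661 of 2729 X-linked and 4104 of 17217 autosomal ones were called in at least 1 table.

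Calls also depend on the number of fragments. Among the 1232 genes with 25 to 49 fragments, the range of the 9 members other than dpy-30, 18.3% were called in wild-type hypodermis, 13.9% in mutant hypodermis, 17.1% in wild-type intestine and 23.3% in mutant intestine. Among the 1602 genes with 3 fragments, the number in dpy-30, the shares lay between 3.5% and 4.06%. The median score over the 10 members was -0.06 in wild-type hypodermis, 0.00 in mutant hypodermis, -0.15 in wild-type intestine and -0.07 in mutant intestine. The corresponding medians of all named genes were -0.04, -0.02, -0.07 and -0.02. The members thus lay around the level of the genome as a whole, with the lowest median in wild-type intestine. There 1 of the 10 scores was above 0, beside 17.6% of all named genes.

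**Figure D2:**
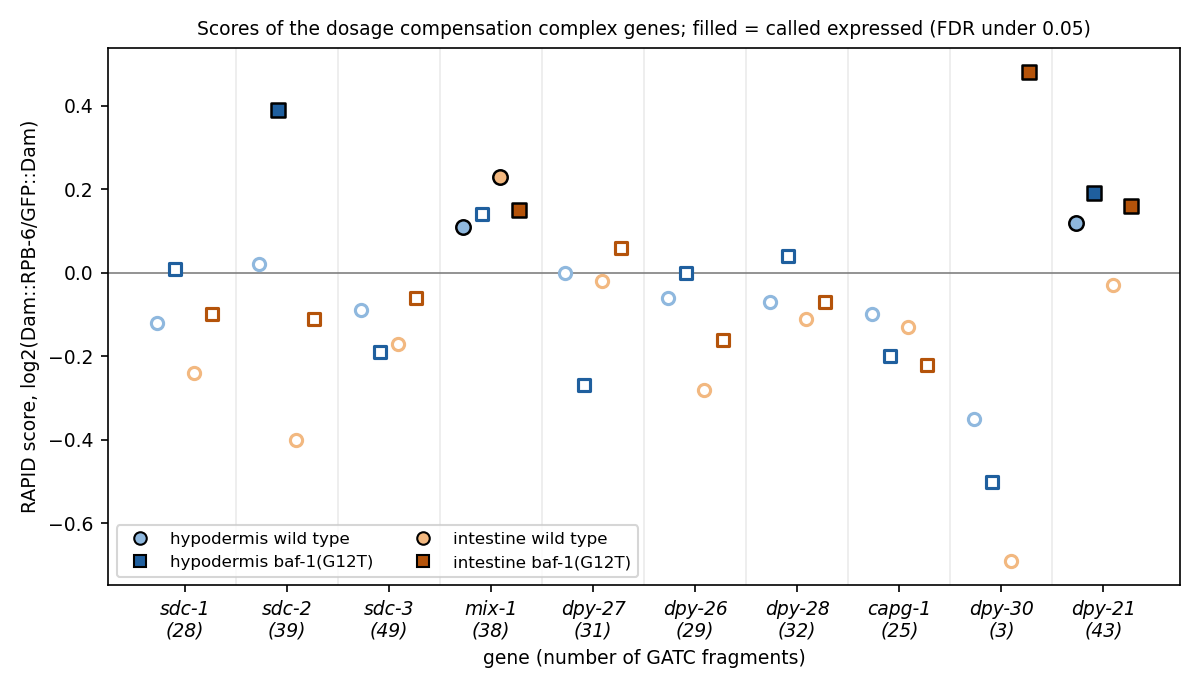
Score of each member (vertical axis, log2 of Dam::RPB-6 over GFP::Dam) in the 4 tables, with circles for wild type, squares for the mutant, filled symbols for genes called expressed and fragment numbers in brackets. The 8 filled symbols belong to sdc-2, mix-1, dpy-30 and dpy-21, and the widest spread is that of dpy-30, from -0.69 to 0.48.

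The SDC genes direct the complex to the X. sdc-2 (WBGene00004746, chrX:11522707-11533450, plus strand) encodes the subunit that starts assembly in hermaphrodites, and its score was 0.02 in wild-type hypodermis, 0.39 in mutant hypodermis, -0.40 in wild-type intestine and -0.11 in mutant intestine. It was thus called only in mutant hypodermis (FDR = 3.6e-05), where 94.4% of all named genes scored lower, and it stood lower in intestine than in hypodermis in both genotypes. sdc-1 (WBGene00004745, chrX:16275763-16282534, plus strand) encodes a zinc finger protein of the complex and, like sdc-2, lies on the chromosome that the complex binds. Its scores of -0.12, 0.01, -0.24 and -0.10, in the same order of tables, were all near or under 0, with an FDR of 1 throughout. sdc-3 (WBGene00004747, chrV:15039148-15048207, minus strand) encodes the zinc finger partner of SDC-2 in X binding and scored -0.09, -0.19, -0.17 and -0.06. With 49 fragments sdc-3 is the most densely sampled member, and it was under 0 in every table.

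The condensin genes divided into mix-1 and the rest. mix-1 (WBGene00003367, chrII:10824246-10841424, plus strand) encodes an SMC ATPase that also serves the mitotic condensins. Its scores were 0.11 in wild-type hypodermis (FDR = 0.0113), 0.14 in mutant hypodermis (FDR = 0.121), 0.23 in wild-type intestine (FDR = 0.00012) and 0.15 in mutant intestine (FDR = 0.00193). It was the member with the highest mean over the 4 tables, 0.16, and the only one with a score above 0.1 in all of them. The call was missing in mutant hypodermis although the score there was no lower than in wild-type hypodermis. In that table a gene needed a higher score for a call. Among the 33 genes with 38 fragments, as in mix-1, the lowest called score was 0.25 in mutant hypodermis, 0.10 in wild-type hypodermis, 0.02 in wild-type intestine and 0.10 in mutant intestine.

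dpy-27 (WBGene00001086, chrIII:3813018-3819679, minus strand) encodes the SMC partner of MIX-1 that is found only in the dosage compensation condensin. Its scores were 0.00, -0.27, -0.02 and 0.06 in the same order, so that it was lowest in mutant hypodermis and near 0 in the other tables. The intestinal FDR of 0.113 in wild type and 0.0681 in the mutant came nearest to a call among the members called in no table. MIX-1 and DPY-27 act as a pair, yet the gap between their scores ran from 0.09 in mutant intestine to 0.41 in mutant hypodermis.

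The non-SMC subunits of the condensin scored close to the median of all genes or below it. dpy-26 (WBGene00001085, chrIV:12445801-12451335, minus strand), which encodes the kleisin that closes the ring, scored -0.06 and 0.00 in wild-type and mutant hypodermis and -0.28 and -0.16 in intestine. dpy-28 (WBGene00001087, chrIII:10763131-10777076, plus strand) encodes a HEAT repeat subunit and scored -0.07 and 0.04 in hypodermis and -0.11 and -0.07 in intestine. capg-1 (WBGene00009254, chrI:7634492-7639785, minus strand) encodes the other HEAT repeat subunit and scored -0.10 and -0.20 in hypodermis and -0.13 and -0.22 in intestine. DPY-26, DPY-28 and CAPG-1 are shared with condensin I, so transcription of these genes is not used for dosage compensation alone. The lowest FDR among the 3 genes was 0.931, for capg-1 in wild-type intestine.

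dpy-30 (WBGene00001088, chrV:12191519-12192385, plus strand), the COMPASS subunit, scored -0.35 in wild-type hypodermis, -0.50 in mutant hypodermis, -0.69 in wild-type intestine and 0.48 in mutant intestine. Of all named genes 3.56%, 1.95% and 1.61% scored lower than dpy-30 in the first 3 tables, whereas 97.8% did so in the last, where the FDR was 0.0253. The gene is 867 bases long and has 3 fragments, 1 of which it shares with rnp-1, an overlapping gene on the same strand that was named after its values were seen. rnp-1, with 9 fragments, scored 0.18, -0.13, -0.24 and 0.01, and was called in no table. dpy-21 (WBGene00001080, chrV:17936282-17949193, minus strand), the demethylase gene, scored 0.12 (FDR = 0.00644), 0.19 (FDR = 0.0151), -0.03 (FDR = 0.134) and 0.16 (FDR = 0.0009). Its 43 fragments overlap no other named gene, and wild-type intestine was the table in which it stayed below 0.

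Neighbouring genes share fragments with several members. VM106R.1 lies inside mix-1 on the opposite strand, and all 5 of its fragments are fragments of mix-1 too. In wild-type intestine it scored 0.74 (FDR = 0.0038) and was called together with mix-1, while in the other tables it scored -0.29, -0.34 and -0.11. RAPID does not separate the strands, so the reads of these 5 fragments cannot be assigned to either gene. How far they carry the score of mix-1 in wild-type intestine was not tested. The fragment between sdc-2 and the next gene, C35C5.8, which starts 143 bases beyond the end of sdc-2 and was named after its values were seen, belongs to both. C35C5.8 scored 0.52 in wild-type and -0.11 in mutant hypodermis, the opposite order to sdc-2.

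The comparison of genotypes asks whether the baf-1(G12T) mutation alters transcription of a gene within a tissue. The wild-type score was subtracted from the mutant score, and a change over 1 on the log2 scale (2-fold) was counted among genes called in at least 1 of the 2 genotypes. In hypodermis sdc-2, mix-1 and dpy-21 could enter the count, and 0 of 3 had a change over 1. Of all 2759 genes that could enter it, 7.65% were higher and 3.3% lower in the mutant. In intestine mix-1, dpy-21 and dpy-30 could enter the count, and dpy-30 was the 1 of 3 with a change over 1. Here 2.87% of 2998 genes were higher in the mutant, and another 2.87% were lower. dpy-30 entered only through its call in mutant intestine, where its score was high, so its entry and its change rest on the same value. Without the requirement of a call, 1 of 10 members and 1.01% of all named genes had an intestinal change over 1 in either direction. Changes over 1 were rare in genes of the size of most members, with 0 of 1232 genes of 25 to 49 fragments past it in hypodermis and 2 (0.162%) in intestine.

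In intestine the change of dpy-30 was 1.17, a ratio of 2.24 between the linear values, and 99.7% of all named genes had a lower change. After quantile normalization of the 2 genotypes it was 1.08. Of the 1602 genes with 3 fragments, 18 (1.12%) had an intestinal change as large in either direction, and 32 (2%) reached its score in mutant intestine. Of the 104 genes with 3 fragments called in at least 1 genotype, 21 (20.2%) had a change over 1, and 11 of these (10.6%) were higher in the mutant. rnp-1, which shares 1 of the 3 fragments, changed by 0.25 in intestine and by -0.30 in hypodermis. In hypodermis the change of dpy-30 was -0.15, so that the 2 tissues differed in sign. A change of that size in either direction was reached by 342 of the 1602 genes with 3 fragments (21.3%). The signs also differed between tissues in sdc-3, mix-1 and dpy-27.

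Among the other members the largest change was that of sdc-2 in hypodermis, 0.37 (0.32 after quantile normalization), followed by sdc-2 in intestine, 0.29 (0.18). In hypodermis 82 of the 1232 genes with 25 to 49 fragments (6.66%) had a change at least as large as that of sdc-2 in either direction, and in intestine 139 (11.3%) did. dpy-27 had the most negative change, -0.28 in hypodermis, a size reached by 154 of these genes (12.5%), against 0.08 in intestine. dpy-21 changed by 0.08 in hypodermis and 0.18 in intestine, and sdc-1 by 0.13 and 0.14. The remaining members, sdc-3, mix-1, dpy-26, dpy-28 and capg-1, lay between -0.10 and 0.12 in both tissues.

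**Figure D3:**
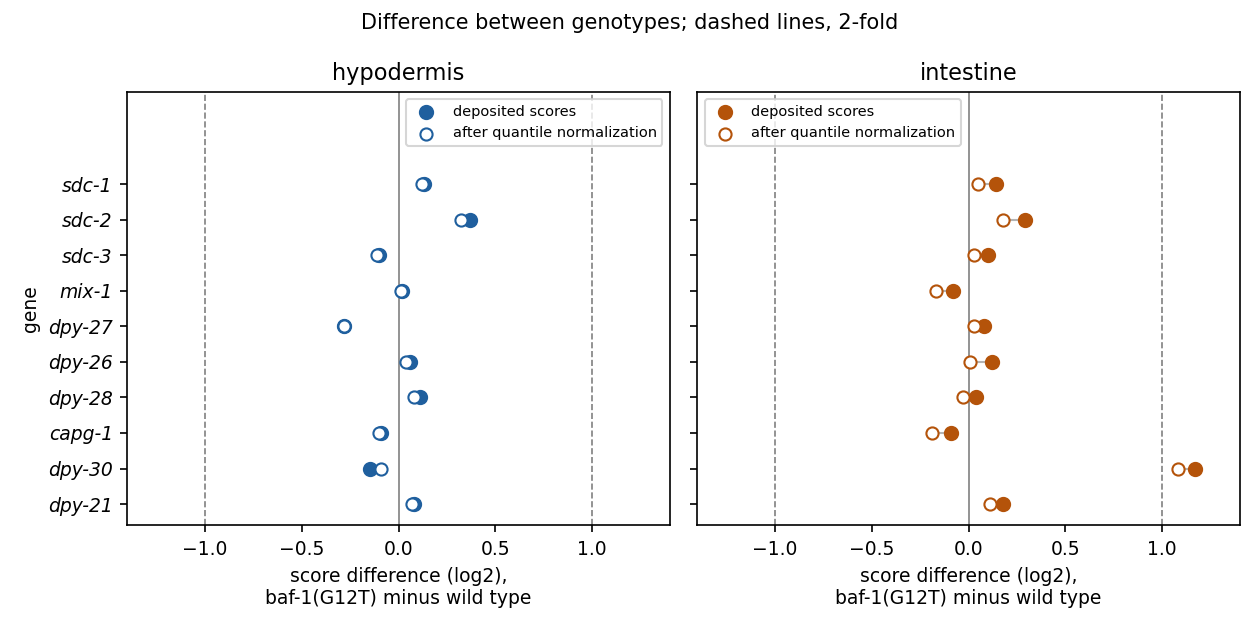
Mutant minus wild-type score (horizontal axis, log2) for each member in hypodermis and intestine, as deposited (filled) and after quantile normalization (open). The point of dpy-30 in intestine, at 1.17 and 1.08, is the only one beyond the dashed 2-fold lines.

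The median change over the 10 members was 0.04 in hypodermis, where 6 of 10 were above 0, against 0.02 for all named genes, of which 60.3% were above 0. In intestine the median was 0.11, with 8 of 10 above 0, against 0.03 and 66.7% for all genes. When the scores were centred on the median of their table the intestinal median was 0.06 with 7 of 10 above 0. All named genes then had a median of -0.02, with 43.6% above 0. After quantile normalization the members had a median of 0.03 with 7 of 10 above 0, against -0.03 and 38.8% for all named genes. Without dpy-30, a choice made after seeing the data, the intestinal median of the members was 0.10 as deposited. Both signs occurred among the members. In hypodermis the changes of sdc-2 and dpy-27 had opposite signs, as had those of dpy-30 and dpy-21.

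**Figure D4:**
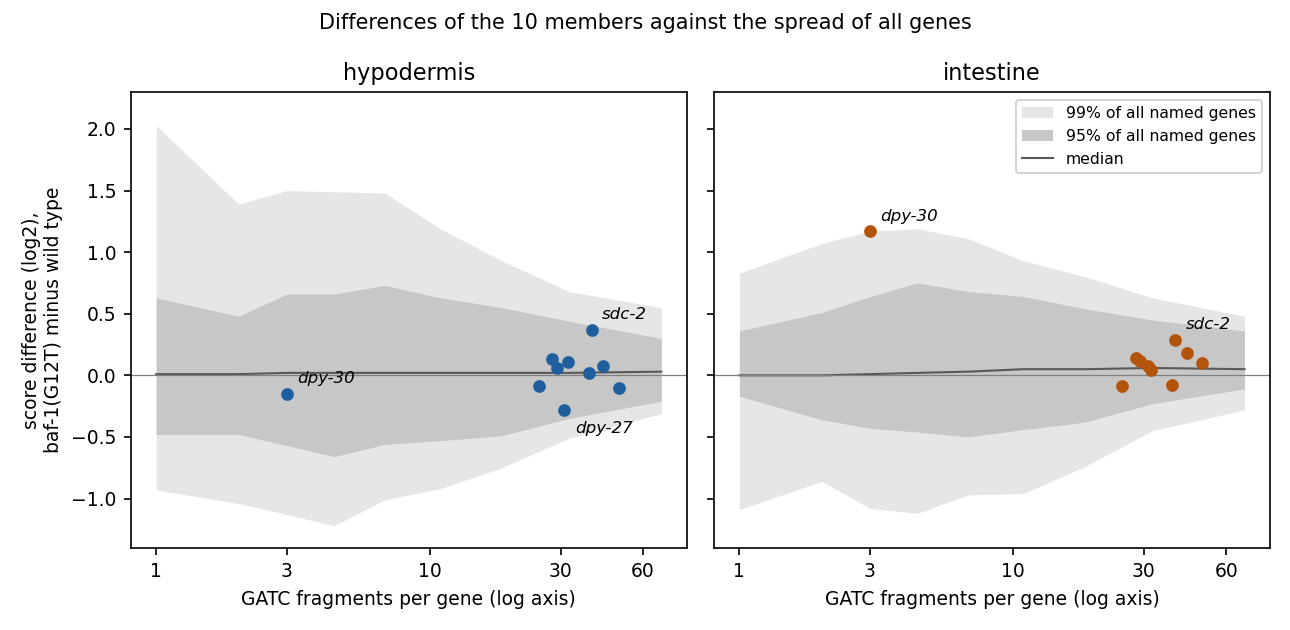
Change between genotypes (vertical axis, log2) against the number of GATC fragments (horizontal log axis), with the members as points over bands that hold 95% and 99% of all named genes in 9 classes of fragment number. The bands narrow to the right, dpy-30 lies at the upper edge of the 99% band in intestine, which is 1.17 at 3 fragments, and the other members lie within the bands.

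The comparison of tissues, hypodermis minus intestine within a genotype, gave 0 of 10 members over 1 in either direction. Such differences were rare in all named genes too, at 1.88% in wild type and 2.08% in the mutant. Among genes with 25 to 49 fragments the shares were 0.731% and 0.974%. Genes called in at least 1 tissue, which include only some of the members, had larger shares. Of these genes, 7.63% of 3055 were higher in hypodermis and 3.96% higher in intestine in wild type. In the mutant the shares were 9.53% and 3.02% of 3179. sdc-2 had the largest difference in favour of hypodermis in both genotypes, 0.42 in wild type and 0.50 in the mutant, or ratios of 1.34 and 1.41. Of the genes with 25 to 49 fragments, 98 (7.95%) differed by as much in wild type and 77 (6.25%) in the mutant. dpy-26 was 0.23 and 0.17 higher in hypodermis, and sdc-1 0.11 higher in both genotypes. mix-1 had the lowest difference in wild type, -0.11, and -0.01 in the mutant.

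The tissue differences of dpy-30 and dpy-27 were not alike in the 2 genotypes. That of dpy-30 was 0.34 in wild type and -0.97 in the mutant, and after quantile normalization these became 0.13 and -1.12, the latter past 2-fold. That of dpy-27 was 0.02 in wild type, a value whose sign turned with centring, and -0.34 in the mutant, a size that 149 of the genes with 25 to 49 fragments (12.1%) reached. In wild type 9 of 10 members were above 0, with a median of 0.10, but 64.1% of all named genes were so too, with a median of 0.02. After centring 7 of 10 members remained above 0, against 46% of all named genes. After quantile normalization 8 of 10 members were above 0, against 42.1% of all named genes. In the mutant 6 of 10 members were above 0, with a median of 0.03, against 56.3% and 0.01 for all named genes.

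Genes that work beside the complex gave a similar picture of scores around 0. Of 34 names on 6 lists, 32 matched the tables, among them him-1, the name used there for the cohesin gene smc-1, while pqn-85 and sex-2 matched no row. In wild-type hypodermis 3 of the 32 were called and in mutant hypodermis 1, where 9.81% and 7.53% of all named genes were. In wild-type intestine 7 of the 32 were called and in mutant intestine 6, where 7.94% and 10.5% of all named genes were, and 12 were called in at least 1 table. Their median change was 0.00 in hypodermis and 0.02 in intestine.

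Condensin subunits outside the dosage compensation complex were represented by 4 genes. smc-4, which encodes the mitotic partner of MIX-1, scored -0.36 and -0.48 in wild-type and mutant hypodermis and 0.04 and -0.27 in intestine. It was therefore called only in wild-type intestine (FDR = 0.043), and it lay below mix-1 in every table. kle-2, a kleisin gene of condensin II, scored -0.21, -0.16, -0.27 and 0.19 and was called in mutant intestine. Of 8 cohesin and cohesin loader genes, mau-2 of the loader was called in wild-type intestine (0.24) and the kleisin gene scc-1 in mutant intestine (0.39), and none in hypodermis.

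The 5 COMPASS partners of dpy-30 did not share its pattern. wdr-5.1, the WD repeat subunit, scored -0.45 and -0.40 in hypodermis, 0.37 in wild-type intestine and -0.44 in mutant intestine. Its intestinal change of -0.81 was thus opposite in sign to that of dpy-30. Both signs occurred among the 5 partners, whose intestinal changes ran from -0.81 to 0.12 with a median of -0.08. ash-2 was called in wild-type intestine with a score of 0.10 and cfp-1 in mutant hypodermis with 0.22. In mutant intestine, where dpy-30 was called, none of the 5 partners was. Only 10.5% of all named genes were called there, so the lack of a call in 5 genes says little.

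The enzymes that make the histone mark on which DPY-21 acts gave the only change over 1 among the related genes. set-4, whose product forms the dimethylated and trimethylated states of lysine 20 of histone H4, scored 0.81 in wild-type hypodermis (FDR = 0.00015) and -0.33 in mutant hypodermis. The change was -1.14, and -1.29 after quantile normalization. set-4 has 7 fragments, and the lower edge of the 99% band for genes with 6 to 8 fragments was -1.01 in hypodermis. In intestine it was called in both genotypes with scores of 0.18 and 0.20. dpy-21 was called in both genotypes of hypodermis and differed by 0.08 there. set-1, which encodes the monomethyltransferase, scored -0.31, -0.17, -0.40 and 0.20 and was called in mutant intestine.

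Upstream of the complex, the X-linked switch gene xol-1, which is repressed in hermaphrodites, scored 0.02, -0.04, -0.08 and -0.03 and was called in no table. ceh-39, an X signal element, was called in both wild-type tables (0.27 in hypodermis, 0.13 in intestine) and scored -0.23 in both mutant tables. sea-2, an autosomal signal element with 71 fragments, scored 0.15, 0.09, 0.12 and 0.13 and was called in all tables but mutant hypodermis. her-1, the male-determining gene that SDC proteins silence in hermaphrodites, scored -0.05, -0.05, 0.03 and -0.04 and was called in no table. fem-2 was the only one of 7 sex determination genes to be called, in mutant intestine (0.19).

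**Figure D5:**
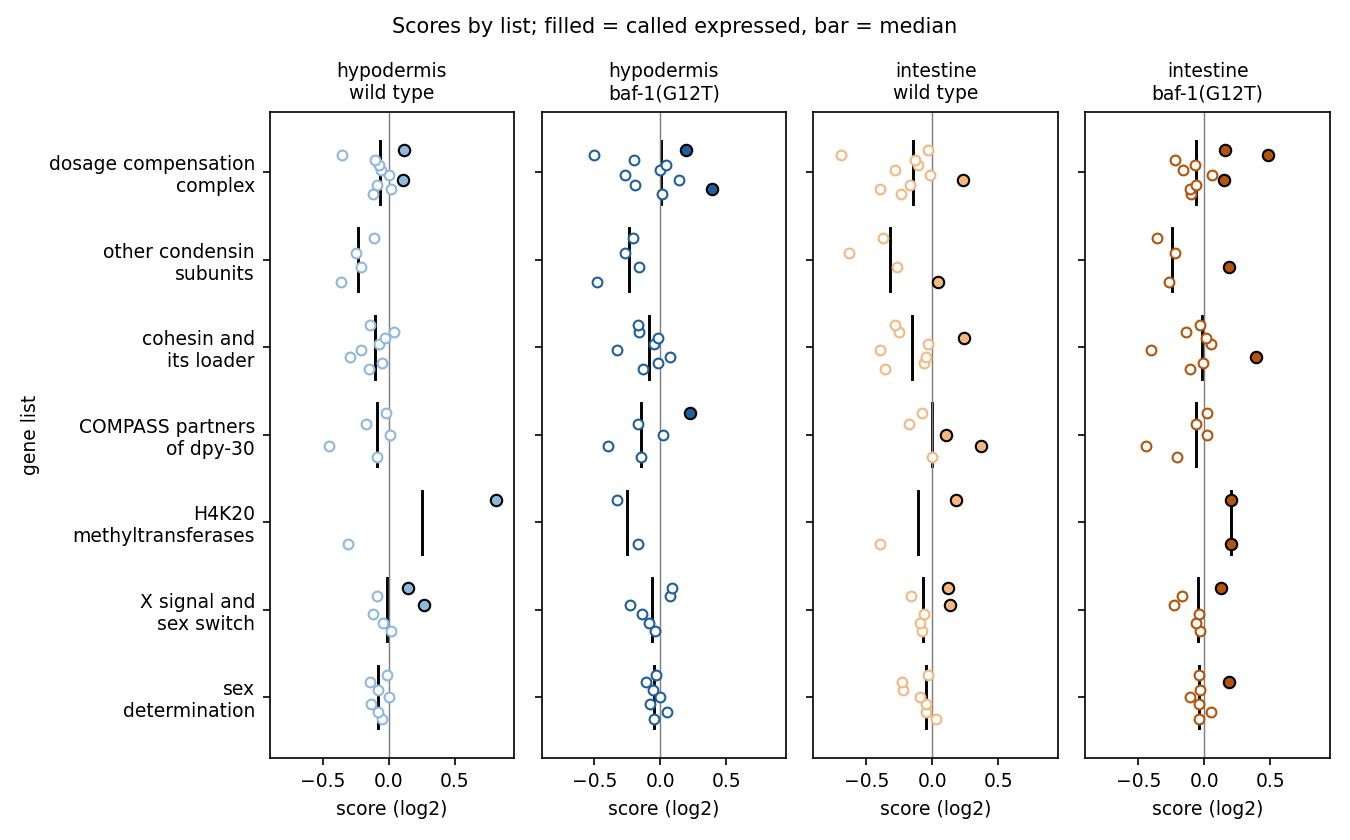
Scores (horizontal axis, log2) of the members and of the 6 related lists in the 4 tables, each point a gene, filled where it was called expressed, with a bar at the median of the list. The isolated point at 0.81 in wild-type hypodermis is set-4, and the highest member point, 0.48 in mutant intestine, is dpy-30.

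Over the 4 tables, the genes with scores nearest to those of mix-1 were C53A5.6, K11H12.8 and Y17G9B.5, at Euclidean distances of 0.062, 0.08 and 0.096 on the log2 scale. They have 16, 5 and 6 fragments, and likeness over 4 values is a weak measure.

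X-linked genes are the targets of the complex, and over all placed genes their median scores were close to those of autosomal genes. In wild-type hypodermis the median score was -0.03 for 2729 X-linked genes and -0.04 for 17217 autosomal genes, and in wild-type intestine -0.08 and -0.07. In the mutant it was -0.03 against -0.01 in hypodermis and -0.03 against -0.02 in intestine. X-linked genes had a median change of 0.01 in hypodermis and autosomal genes one of 0.02, and the values in intestine were 0.04 and 0.03. The change was above 0 in 53.6% of X-linked and 61.4% of autosomal genes in hypodermis, and in 69.3% and 66.3% in intestine. In wild-type hypodermis 12.4% of X-linked and 9.41% of autosomal genes were called, and in wild-type intestine 7.26% and 8.04%. In the mutant the called shares were 8.98% and 7.29% in hypodermis and 8.76% and 10.8% in intestine. sdc-1 and sdc-2 are X-linked themselves, and of their 8 scores 1 was called.

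The tissue labels were checked with marker genes. Of 10 hypodermal markers 7 and 6 were called in wild-type and mutant hypodermis and 2 and 0 in intestine. Of 10 intestinal markers 4 and 6 were called in wild-type and mutant intestine and 0 and 1 in hypodermis. Their median scores were 0.42 and 0.99 for hypodermal markers in hypodermis and 0.04 and 0.20 for intestinal markers in intestine. The median of the hypodermal markers, like the score of sdc-2, was higher in mutant than in wild-type hypodermis, and the part of this in the change of sdc-2 was not tested. Of 6 germ line markers none was called in any table. Of 4 muscle markers 1 was called in mutant intestine, and of 4 neuronal markers 1 in wild-type hypodermis, where the highest neuronal score was 0.74. With 7.53% to 10.5% of all named genes called per table, lists this short say little about signal from other tissues.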

How the data were processed

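RAPID libraries were made from 200 ng of genomic DNA with 14 PCR cycles. The authors kept reads that carry the DamID adapter and map to GATC sites (genome build ce11, the same as WBcel235), used damidseq_pipeline to normalize the polymerase fusion to its control, and scored genes with polii.gene.call. The deposited scores are log2 ratios of Dam::RPB-6 to GFP::Dam. The FDR deposited beside them is a q-value from the same tool and was taken over unchanged. The number of GATC fragments per gene was deposited with both. The study describes its genotype differences as averages, but the sources used here do not state how the single score and FDR in each table were formed from the 2 replicates. Since the tables hold no counts per gene, the reads behind a single score are unknown and no interval or SD could be given. The study does report reads per library. Of all RAPID libraries, the 2 replicates of Dam::RPB-6 in mutant hypodermis had the fewest and the most reads at GATC sites. What this did to the scores of mutant hypodermis was not tested.

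From the 19985 rows per table, 11 without a gene name were left out. Of 19974 named genes, Ensembl release 115 placed 19406, RefSeq genes on that assembly placed 540, and 28 had no position. Sites and sequences were read from the RefSeq WBcel235 genome. Genes were called expressed at an FDR under 0.05, as in the study. Changes were counted at a difference over 1 between combined values, which is only part of the rule of the study, since that also required a change in both replicates, and those were not analysed here. limma had been planned only for replicate values and was not run. Bands and shares by fragment number are descriptions over genes, which are not replicates. The code that applies the calling rules was tested on simulated data, which does not bear on how well the rules perform on these scores.

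Members and lists were chosen with earlier results of these data known. The text names all 10 members, related genes called in at least 1 table, her-1, xol-1, smc-4 and set-4 whatever their value, neighbours within 500 bases called in the same table as the member, and the 3 genes nearest to mix-1. rnp-1 and C35C5.8 were named after their values were seen. Other settings tried were an FDR under 0.01 or 0.1, a score above 0.2, differences of 0.58 and 1.5, no requirement on the FDR, centring, quantile normalization, at least 3 fragments or protein-coding genes for the background, and at least 4 fragments or called genes for the X comparison. The classes of 3 and of 25 to 49 fragments and the set without dpy-30 were chosen after seeing the data. The software was matplotlib 3.10.9, pandas 2.3.3, numpy 2.4.6 and Python 3.11.15.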

Additional observations from a re-analysis of the deposited data

Results flagged for a closer look

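dpy-30 drew attention because of the size of the gap between its genotype differences in the 2 tissues. Opposite signs alone were not particular to it, since sdc-3, mix-1 and dpy-27 had them too. The baf-1(G12T) score minus that of wild type was 1.17 in intestine and -0.15 in hypodermis, so that these changes differ by 1.32 on the log2 scale. The difference between the tissues was not tested, since each table holds 1 combined value per gene.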

How the results depend on the processing

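No paired analysis was possible because each table holds 1 value per gene, and for the same reason no replicate could be left out in turn. Without counts per gene, the reads behind each score are unknown, and a gene such as dpy-30 rests on 3 fragments. At an FDR under 0.01, 1 member was called in wild-type hypodermis, 1 in mutant hypodermis and 2 in mutant intestine, where the call of dpy-30 (FDR = 0.0253) was lost. With a score above 0.2 as well, 0 members were called in wild-type hypodermis, 1 in mutant hypodermis and 1 in mutant intestine. With a difference over 1.5 the count of members past it in intestine was 0. The shares of all named genes under these changed settings are not given here, so these counts cannot be set against a background. Among genes called in at least 1 table, the median of X-linked genes exceeded that of autosomal genes in wild-type hypodermis by 0.12, against 0.01 over all placed genes. The filter itself uses the calls of wild-type hypodermis, where 51.1% of the X-linked and 39.5% of the autosomal genes kept were called. The gap of 0.12 therefore cannot be told apart from the effect of the filter. Of 40 differences between genotypes or tissues, centring moved 0 by over 0.1 and changed the sign of 3 (dpy-28 between genotypes in intestine, capg-1 and dpy-27 between tissues in wild type). Quantile normalization moved 5 by over 0.1 and changed the sign of 2, those of dpy-28 and capg-1, and the intestinal change of dpy-30 stayed over 1 under both.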
